A study of Homo sapiens with 8 samples.

Results

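Of 25369 genes in a table of RPKM values (reads scaled by gene length and by the depth of the library), 35 genes of the NRF2 system, of glutathione and thioredoxin chemistry and of the pentose phosphate pathway are described here. They were chosen by name, and all 35 were found in the table. The cells were EPC2-hTERT, human keratinocytes of the esophagus that telomerase has made immortal, grown at an air-liquid interface so that they stratify. Treated cultures received 1 mM dimethyloxalylglycine (DMOG) for 18 h, and control cultures received its vehicle, DMSO. Both groups are the same line, labelled WT, and each has 4 libraries. The cells had 5 days in raised calcium (1.8 mM) and then 4 days with their upper face in air. DMOG resembles 2-oxoglutarate and inhibits the prolyl hydroxylases, which otherwise tag HIF alpha subunits for destruction.

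NRF2, encoded by NFE2L2, is a transcription factor that cells make and destroy continuously. Its sensor KEAP1 hands it to a ubiquitin ligase until oxidants or electrophiles modify KEAP1, after which NRF2 joins a small MAF protein on antioxidant response elements in DNA. Many of its targets make glutathione, regenerate thioredoxin, or supply the NADPH that both need, and the oxidative arm of the pentose phosphate pathway is a main source of that NADPH. In squamous epithelium of the esophagus NRF2 is known for its part in keratinization and in defence against ingested electrophiles.

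The sites below are shown because they carry the core of the antioxidant response element, TGACNNNGC, on either strand, close upstream of a member's start. They come from RefSeq promoter windows on GRCh38.p14, which run from 250 bases before to 50 bases after the first start listed for a gene. The windows of ME1 and TXNRD1 each hold a further core that ends past the start and is not shown. Sequences are read on the gene's strand, and capitals mark the core, which begins with GC where it lies on the other strand.
GCLM, chr1:93909441-93909479, minus strand: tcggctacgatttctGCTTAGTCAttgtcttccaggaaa
PGD, chr1:10398848-10398886, plus strand: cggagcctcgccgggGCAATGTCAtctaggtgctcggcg
RPE, chr2:210002472-210002510, plus strand: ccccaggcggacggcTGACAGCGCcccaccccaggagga
GSTP1, chr11:67583731-67583769, plus strand: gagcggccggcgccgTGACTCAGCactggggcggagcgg
ME1, chr6:83431165-83431203, minus strand: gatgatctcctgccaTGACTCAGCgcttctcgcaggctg
TXNRD1, chr12:104215665-104215703, plus strand: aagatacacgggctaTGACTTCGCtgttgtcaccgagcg
GPX2, chr14:64942844-64942882, minus strand: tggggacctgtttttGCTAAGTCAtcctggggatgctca

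Windows were found for 29 members. The core was present in 7 of them (24.1%), against 3702 of 27305 windows of all genes (13.6%). The AP-1 motif TGACTCA, which lies inside the core in GSTP1 and ME1, was in 3 member windows (10.3%), against 4.92% of all windows. The hypoxia response core was in 6 member windows (20.7%) in its form ACGTG and in 13 (44.8%) in its form GCGTG, against 21.6% and 36.3% of all windows. A match is a stretch of letters and not a measured binding site.

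Libraries had 31245695 to 39931833 reads in genes. Of the genes that DMOG is known to induce through HIF, CA9 stood at 25.2, 2.56, 9.97 and 57.5 RPKM in DMOG replicates 1 to 4, against 0.925, 1.29, 0.129 and 0.586 RPKM in vehicle replicates 1 to 4. DMOG replicate 2 was thus much nearer to the vehicle libraries than the other DMOG libraries were. The authors' own deposited comparison rests on replicates 1, 3 and 4 of each group, with replicate 2 left out of both, and the reason is not stated in the labels. Results are therefore given for those 6 libraries and for all 8. The p-values of the 6-library comparison take that choice of libraries as given. Keratinocyte markers (8 genes) summed to 14407 to 14895 RPKM in DMOG libraries and 10523 to 18726 RPKM in vehicle libraries. Among markers of other cell types, COL1A1, a fibroblast collagen, reached 32.0 RPKM with DMOG and 14.1 RPKM with vehicle, and CD68, a lysosomal gene of macrophages, reached 93.1 RPKM with DMOG and 73.4 RPKM with vehicle. VWF, an endothelial marker, stood at 0.862 to 1.67 RPKM with DMOG and 1.41 to 1.95 RPKM with vehicle. The fibroblast genes DCN and LUM and the endothelial gene CDH5 were at 0 in every library, and PTPRC, the common leukocyte antigen, reached at most 0.00395 RPKM. A count of 0 allows up to 3 reads, which are 0.0751 to 0.0960 RPM in these libraries.

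Over the 6 libraries, 14 of the 35 members were lower with DMOG, 0 were higher and 21 did not pass (limma-trend on RPKM divided by median-ratio factors, adjusted p under 0.05 over all 11122 genes tested). Over all genes tested, 16.1% were lower and 13.7% higher. With the replicate number as a block (same-numbered libraries deviated together), 15 members were lower and 2 were higher, against 21.0% and 19.6% of all genes. The members that fell were GSS, NQO1, RPE, GCLC, GPX1, PRDX1, GSR, PGD, SOD2, NFE2L2, GCLM, SRXN1, PRDX3 and SOD1. The median log2 fold change of the members was -0.30 (quartiles -0.57 and -0.08), against -0.00014 for all genes. All fold changes are DMOG over vehicle on the log2(RPKM + 1) scale, where the added 1 makes folds of low genes too small. In bulk RNA, fewer cells that express a gene and less of its RNA per cell cannot be told apart. All 35 members passed the filter of 1 RPKM in at least 4 of the 8 libraries.

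**Figure D1:**
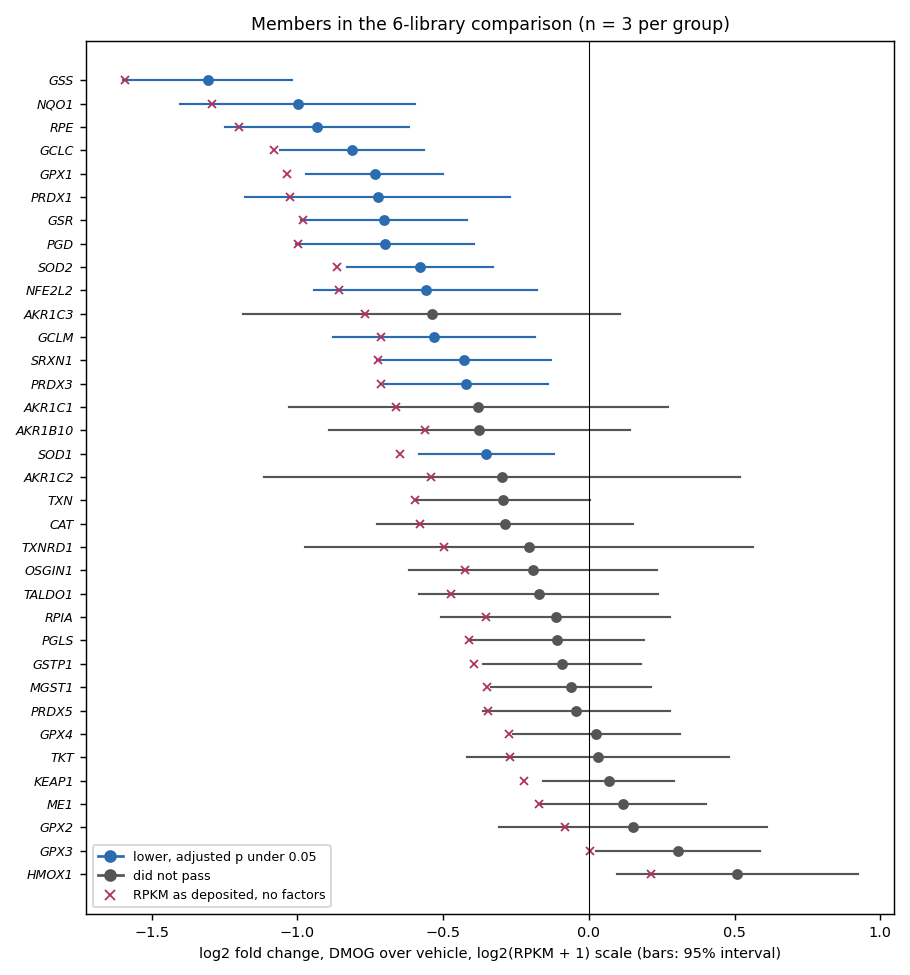
Log2 fold change of each member, DMOG over vehicle, in the 6-library comparison (3 libraries per group), with its 95% interval. Circles are values with median-ratio factors, blue where the adjusted p was under 0.05. Crosses are values of RPKM as deposited, and every cross lies to the left of its circle. GSS is lowest at -1.31 and HMOX1 highest at 0.51.

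Over all 8 libraries 0 members and 0 genes passed, in limma-trend and in limma-voom on recovered reads alike. At an unadjusted p under 0.05, limma-trend had 12 members lower and 1 higher, against 16.3% and 14.0% of all genes, and limma-voom had 11 and 1. The median of the members was -0.22. GSS had a log2 fold change of -1.0 ± 0.26, NQO1 of -0.74 ± 0.20 and GCLC of -0.64 ± 0.14, all with a limma adjusted p of 0.118, and NFE2L2 of -0.40 ± 0.17 (0.15). In 7 members, GCLC, GCLM, GSS, GSR, PRDX1, SOD2 and PGD, all 4 DMOG libraries lay below all 4 vehicle libraries after scaling, as did those of 7.33% of all genes, and 0 members had them all above (5.04% of all genes). With 6 libraries, all DMOG values lay below all vehicle values for 15 members (the 14 and TXN) and above them for 2 (GPX3 and HMOX1), against 26.8% and 24.5% of all genes. With RPKM as deposited 28 members lay below (45.6% of all genes) and 0 above (9.99%), and over 8 libraries 6 lay below (12.8%) and 0 above (2.27%). At an unadjusted p under 0.05 the 6 libraries had 14 members lower and 2 higher, against 23.3% and 21.6% of all genes. Without DMOG replicate 2 of the 8, 13 members were lower and 1 was higher, against 17.7% and 15.5% of all genes. The one that rose then was HMOX1, with an adjusted p of 0.0332.

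The count also moved with single libraries of the 6. It was 6 members lower when replicate 1 of either group was left out, 8 when vehicle replicate 3 was and 9 when vehicle replicate 4 was. The genes called over the whole table moved as well, with 486 higher and 607 lower without DMOG replicate 1. Leaving out vehicle replicate 1 gave 379 and 539, vehicle replicate 3 gave 864 and 1018, and vehicle replicate 4 gave 466 and 587, against 1526 and 1792 with all 6. With RPKM as deposited 19 members were lower and 0 higher, but 34.5% of all genes were then lower and 6.13% higher, and the median gene stood at -0.26. Fold changes below are relative to the median gene, while RPKM are as deposited.

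The authors' deposited table, which has all 35 members among its 13424 genes, gives an adjusted p under 0.05 to 14 members that were lower and to 1 that was higher, HMOX1. The 14 are the same genes as in the 6-library fit. That table calls 17.6% of its genes lower and 18.8% higher.

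**Figure D2:**
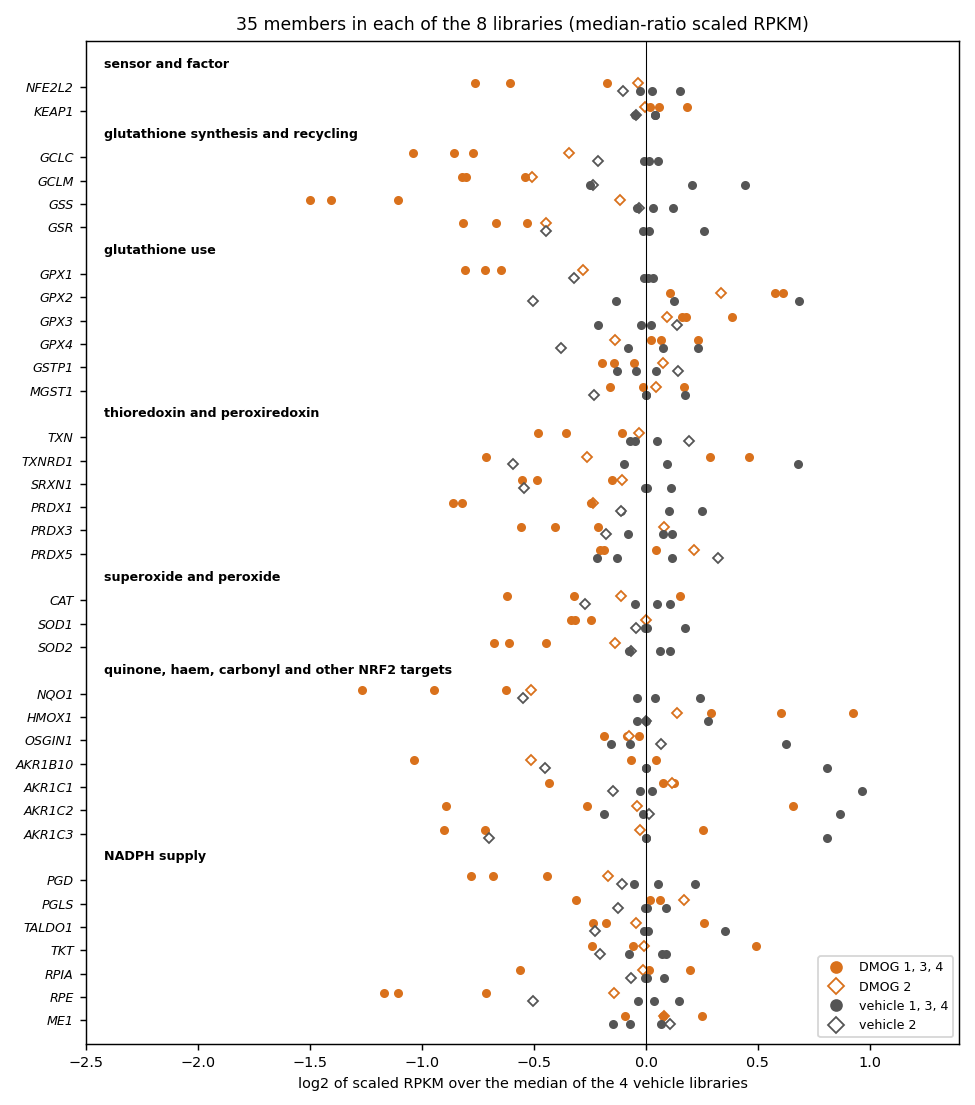
Each member in each of the 8 libraries, as the log2 of its scaled RPKM over the median of the 4 vehicle libraries. Members are grouped by role, DMOG libraries are orange and drawn above the grey vehicle libraries, and open diamonds are replicate 2. For GSS, DMOG replicates 1, 3 and 4 lie more than 1 log2 unit below the vehicle median while DMOG replicate 2 lies beside the vehicle libraries.

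All 4 genes of glutathione synthesis and recycling were lower with DMOG in the 6 libraries, against 16.1% of all genes. GSS (chromosome 20, 33516236 to 33543601, hg19), the synthetase that adds glycine in the last step, fell furthest of the 35 members. It had 9.84, 27.8, 12.3 and 8.54 RPKM in DMOG replicates 1 to 4, against 34.9, 28.1, 29.8 and 33.2 RPKM in vehicle replicates 1 to 4. DMOG replicate 2 was thus just under the lowest vehicle library, and the other DMOG libraries were far below it. Over the 6 libraries GSS averaged 10.2 ± 1.91 RPKM with DMOG and 32.6 ± 2.58 RPKM with vehicle (SD, n = 3 each). Its log2 fold change was -1.31 ± 0.12 (SE, limma adjusted p = 0.00282).

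GCLC (chromosome 6, 53362140 to 53409927) encodes the catalytic subunit of glutamate-cysteine ligase, the rate-limiting step. Its values were 6.13, 9.52, 5.87 and 4.72 RPKM with DMOG and 12.8, 9.93, 12.7 and 13.1 RPKM with vehicle, and the groups did not overlap. The log2 fold change was -0.81 ± 0.10 (adjusted p = 0.00535, limma). GCLM (chromosome 1, 94352590 to 94375012), the modifier subunit of the same ligase, was a low gene with 91 to 349 reads per library. It stood at 1.01, 1.45, 1.25 and 0.947 RPKM with DMOG, against 2.53, 1.66, 2.84 and 1.86 RPKM with vehicle, and here too the groups did not overlap (log2 fold change -0.53 ± 0.15, limma adjusted p = 0.0355). That fold is understated by the added 1, and on the log2 count scale of limma-voom it was -0.86. The GCLM call was lost when DMOG replicate 1 (adjusted p = 0.112) or 4 (0.0680) or vehicle replicate 1 (0.115) or 3 (0.0965) was left out, and with no filter (0.0599).

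GSR (chromosome 8, 30535580 to 30585486), the reductase that returns oxidized glutathione to its reduced form with NADPH, had 7.34, 11.0, 9.11 and 7.54 RPKM in DMOG libraries and 16.1, 10.5, 18.2 and 15.9 RPKM in vehicle libraries. Only replicate 2 of the 2 groups overlapped, and after scaling no library did. The log2 fold change was -0.70 ± 0.12 (adjusted p = 0.00946, limma). The calls for GSS, GCLC and GSR held in each of the 14 alternatives run, with the highest adjusted p at 0.0268, 0.036 and 0.0457.

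**Figure D3:**
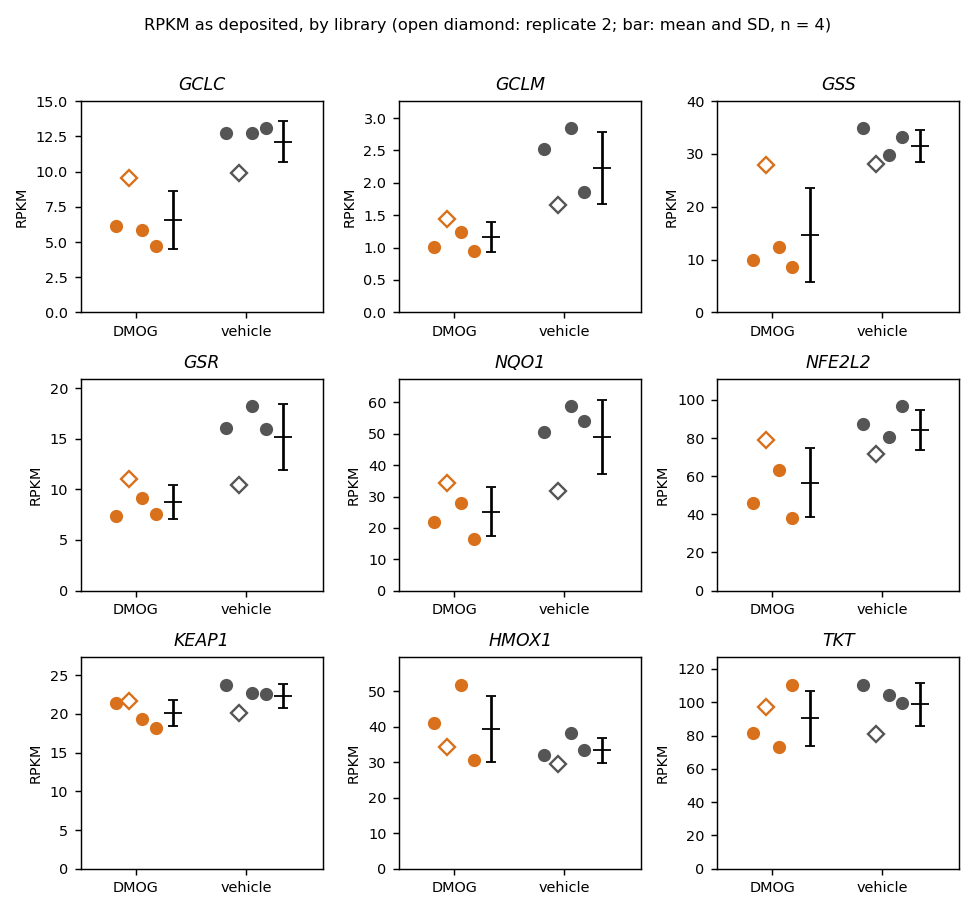
RPKM as deposited in each library for 9 members, DMOG in orange and vehicle in grey, with replicate 2 as an open diamond and bars for the mean and SD of all 4 libraries. GCLC and GCLM do not overlap between groups, whereas KEAP1 at 18.1 to 21.6 RPKM with DMOG and 20.1 to 23.8 RPKM with vehicle does.

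NFE2L2 itself was lower and KEAP1 did not pass. NFE2L2 (chromosome 2, 178095031 to 178129859) had 46.0, 79.0, 63.1 and 38.2 RPKM with DMOG, against 87.6, 71.8, 80.5 and 96.6 RPKM with vehicle. DMOG replicates 1, 3 and 4 were below every vehicle library, and DMOG replicate 2 was within their range. Over the 6 libraries it averaged 49.1 ± 12.8 RPKM with DMOG and 88.2 ± 8.05 RPKM with vehicle (SD, n = 3 each). The fitted log2 difference was -0.56 ± 0.16 (adjusted p = 0.0405, limma). This call was lost when DMOG replicate 1 (adjusted p = 0.128) or 4 (0.0796) or vehicle replicate 1 (0.11), 3 (0.0810) or 4 (0.124) was left out, and with no filter (0.0736). KEAP1 (chromosome 19, 10596796 to 10614054) had 21.4, 21.6, 19.4 and 18.1 RPKM with DMOG and 23.8, 20.1, 22.7 and 22.5 RPKM with vehicle. Its log2 fold change was 0.07 with a 95% interval of -0.16 to 0.29 (limma adjusted p = 0.604), and -0.22 with RPKM as deposited.

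Of 15 further genes that partner, rival or degrade NRF2, 14 were tested, 1 was higher, 2 were lower (14.3%, against 16.1% of all genes) and 11 did not pass. Without factors 1 was higher and 6 were lower, against 34.5% of all genes lower. The related factor NFE2L1, which controls proteasome genes, averaged 39.9 ± 0.960 RPKM with DMOG and 115 ± 15.2 RPKM with vehicle (SD, n = 3 each). Its log2 fold change was -1.20 ± 0.11 (limma adjusted p = 0.00282). In DMOG replicate 2, NFE2L1 stood at 106 RPKM, within the 84.5 to 131 RPKM of the 4 vehicle libraries. NFE2L3, another relative, changed by -0.84 (0.0178). BTRC, a ubiquitin ligase subunit that can recognize NRF2, was higher by 0.71 (0.00738). BACH1, the repressor that competes for the same elements, stood at 15.8 to 18.7 RPKM with DMOG and 14.4 to 17.8 RPKM with vehicle, and its log2 fold change was 0.41 (0.053) with factors and 0.13 as deposited. BACH1 is named after its values were seen.

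Among the enzymes that use glutathione, GPX1 was lower (16.7% of the 6, against 16.1% of all genes) and the other 5 did not pass. GPX1 (chromosome 3, 49394609 to 49395791), the cytosolic selenium peroxidase, had 109, 171, 104 and 106 RPKM in DMOG libraries and 219, 158, 215 and 224 RPKM in vehicle libraries. Replicate 2 of each group lay between the other DMOG and the other vehicle libraries. The log2 fold change over the 6 libraries was -0.74 ± 0.10 (limma adjusted p = 0.00584), and the call held in all 14 alternatives of the 6-library fit. GPX4, which reduces lipid hydroperoxides, had a log2 fold change of 0.03 with a 95% interval of -0.26 to 0.31, or -0.27 as deposited. GPX3, a secreted peroxidase, stood at 102 to 126 RPKM with DMOG and 97.9 to 121 RPKM with vehicle (0.31 with factors and 0.0047 as deposited, adjusted p = 0.0903 and 0.979), and it passed as higher with the replicate number as a block (0.0478). GPX2, the gastrointestinal peroxidase, was low at 2.61 to 3.67 RPKM with DMOG and 1.88 to 4.84 RPKM with vehicle (0.15 with factors and -0.08 as deposited, adjusted p = 0.572 and 0.767). Its listed position overlaps that of CHURC1-FNTB on the opposite strand.

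The most abundant member per length was GSTP1, a glutathione transferase of squamous epithelia, at 643 to 932 RPKM with DMOG and 870 to 969 RPKM with vehicle. Its log2 fold change was -0.09 (95% interval -0.36 to 0.18, adjusted p = 0.558), but -0.40 with RPKM as deposited (0.0286). MGST1, a membrane-bound transferase, was at -0.06 with factors (0.699) and at -0.35 as deposited (0.046), and at 0.01 with vehicle replicate 2 added. Whether these transferases are called lower thus depends on the scaling, and the median gene itself stood at -0.26 as deposited.

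In the thioredoxin branch, PRDX1, PRDX3 and SRXN1 were lower (50%, against 16.1% of all genes), and TXN, TXNRD1 and PRDX5 did not pass. PRDX1 (chromosome 1, 45976707 to 45988562), the main cytosolic peroxiredoxin, had 95.6, 166, 145 and 86.2 RPKM with DMOG, against 192, 172, 236 and 226 RPKM with vehicle. All DMOG libraries were below all vehicle libraries (log2 fold change -0.72 ± 0.19, limma adjusted p = 0.0316). Its listed position overlaps that of MMACHC on the opposite strand, and the labels do not state that strand was kept. PRDX3 (chromosome 10, 120927215 to 120938377), the mitochondrial peroxiredoxin, had 21.1, 34.2, 24.5 and 17.6 RPKM with DMOG and 37.3, 27.2, 34.7 and 32.9 RPKM with vehicle (-0.42 ± 0.12, adjusted p = 0.0379). SRXN1 (chromosome 20, 627268 to 634014), sulfiredoxin, which repairs overoxidized peroxiredoxins, had 26.2, 41.2, 27.8 and 32.0 RPKM with DMOG and 47.0, 28.9, 45.2 and 51.4 RPKM with vehicle (-0.43 ± 0.13, adjusted p = 0.043). In both of these genes replicate 2 of either group overlapped the other group.

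Each of these calls was lost under several alternatives. PRDX1 lost its call when DMOG replicate 1 (adjusted p = 0.111) or 4 (0.0684) or vehicle replicate 1 (0.0666), 3 (0.0922) or 4 (0.095) was left out, and with no filter (0.0619). PRDX3 lost it when DMOG replicate 1 (0.112) or 4 (0.0711) or vehicle replicate 1 (0.131), 3 (0.1) or 4 (0.0753) was left out, and with no filter (0.0641). SRXN1 lost it when DMOG replicate 1 (0.139) or 3 (0.0615) or vehicle replicate 1 (0.112), 3 (0.0918) or 4 (0.134) was left out, with no filter (0.0724) and with vehicle replicate 2 added (0.232). TXN, thioredoxin, stood at 83.1 to 142 RPKM with DMOG and 148 to 158 RPKM with vehicle without overlap, but after scaling its log2 fold change was -0.29 (adjusted p = 0.114). TXN passed without DMOG replicate 3 (0.0258) and as deposited (0.0161). TXNRD1, thioredoxin reductase, whose listed position overlaps that of EID3, stood at 12.7 to 31.5 RPKM with DMOG and 16.4 to 42.3 RPKM with vehicle (-0.21, 95% interval -0.97 to 0.56). PRDX5, a peroxiredoxin of several compartments, stood at 207 to 341 RPKM with DMOG and 271 to 350 RPKM with vehicle (-0.04, adjusted p = 0.826).

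Both superoxide dismutases were lower (66.7% of these 3 genes, against 16.1% of all genes) and catalase did not pass. SOD2 (chromosome 6, 160100149 to 160114353), the manganese enzyme of mitochondria, had 11.3, 18.2, 12.9 and 10.01 RPKM with DMOG and 22.2, 18.2, 21.9 and 20.4 RPKM with vehicle. DMOG replicate 2 and vehicle replicate 2 were level, and the other libraries of the groups did not overlap. The log2 fold change was -0.58 ± 0.11 (limma adjusted p = 0.0111), a call lost when replicate 1 of DMOG (0.0515) or of vehicle (0.0554) was left out. SOD1 (chromosome 21, 33031935 to 33041243), the copper-zinc enzyme of the cytosol, had 32.7, 47.0, 34.9 and 29.9 RPKM with DMOG and 49.9, 43.4, 47.8 and 57.0 RPKM with vehicle (-0.35 ± 0.10, adjusted p = 0.0367). The SOD1 call was lost when DMOG replicate 1 (0.114) or 4 (0.0637) or vehicle replicate 1 (0.0983), 3 (0.0731) or 4 (0.13) was left out, and with no filter (0.0525). CAT, catalase, stood at 15.1 to 24.4 RPKM with DMOG and 20.8 to 30.5 RPKM with vehicle (-0.29, adjusted p = 0.264), and it passed without DMOG replicate 4 (0.033) and as deposited (0.0295).

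Of 7 NRF2 targets that act on quinones, haem, carbonyls or growth, NQO1 was lower and 6 did not pass. The share lower was 14.3%, against 16.1% of all genes. NQO1 (chromosome 16, 69743304 to 69760571), a quinone reductase often used as a readout of NRF2 activity, had 22.0, 34.3, 28.0 and 16.3 RPKM with DMOG and 50.7, 31.9, 58.8 and 54.1 RPKM with vehicle. DMOG replicates 1, 3 and 4 were below every vehicle library, and the replicate 2 libraries of both groups were close to each other. Over the 6 libraries it averaged 22.1 ± 5.83 RPKM with DMOG and 54.5 ± 4.05 RPKM with vehicle (SD, n = 3 each). With factors its log2 fold change was -1.0 ± 0.17 (adjusted p = 0.00935, limma), and -1.29 with RPKM as deposited. The NQO1 call held in all 14 alternatives of the 6-library fit.

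HMOX1, haem oxygenase, had the highest fold change of the 35 members. It had 40.9, 34.2, 51.8 and 30.5 RPKM in DMOG libraries and 32.1, 29.6, 38.2 and 33.4 RPKM in vehicle libraries, with overlap. After scaling, the log2 fold change was 0.51 ± 0.18 (limma adjusted p = 0.0647), and 0.21 as deposited. It passed as higher with the replicate block (0.0205), when vehicle replicate 2 joined the 6 libraries (0.0332) and when DMOG replicate 4 was left out (0.0233). OSGIN1, a growth inhibitor induced by oxidants, stood at 2.82 to 3.47 RPKM with DMOG and 3.53 to 5.72 RPKM with vehicle (-0.19, adjusted p = 0.437).

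The aldo-keto reductases were set apart by vehicle replicate 4. AKR1C1 had 13.4, 15.4, 9.28 and 12.05 RPKM with DMOG, against 15.4, 12.3, 14.2 and 29.8 RPKM with vehicle. AKR1C2 had 1.89 to 5.05 RPKM with DMOG, against 3.72, 3.83, 4.01 and 7.82 RPKM with vehicle. AKR1C3 (1.6 to 3.38 RPKM with DMOG, 2.02 to 6.49 RPKM with vehicle) and AKR1B10 (0.730 to 1.57 RPKM with DMOG, 1.21 to 3.26 RPKM with vehicle) were likewise highest in vehicle replicate 4. Adjusted p was 0.319, 0.529, 0.167 and 0.219 for these 4 genes in that order. AKR1C3 passed as lower with the replicate block (0.0169) and without DMOG replicate 4 (0.0452). The AKR1C genes are close paralogs, and no source used here says how reads common to them were counted, so their separate values are uncertain.

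Of 7 genes that supply NADPH or run the pentose phosphate pathway, PGD and RPE were lower and 5 did not pass. The share lower was 28.6%, against 16.1% of all genes. PGD (chromosome 1, 10459085 to 10480201), 6-phosphogluconate dehydrogenase, makes NADPH in the oxidative arm. It had 36.0, 59.4, 43.3 and 31.2 RPKM with DMOG and 73.7, 59.2, 79.1 and 69.3 RPKM with vehicle. The groups overlapped only in replicate 2 as deposited and not after scaling. The log2 fold change was -0.70 ± 0.13 (limma adjusted p = 0.0112). The call was lost when replicate 1 of DMOG (0.0520) or of vehicle (0.0516) was left out. RPE (chromosome 2, 210867289 to 210886984), the ribulose phosphate epimerase, had 4.84, 10.9, 6.47 and 4.29 RPKM with DMOG and 13.1, 8.08, 11.9 and 14.3 RPKM with vehicle. Replicate 2 of the 2 groups again overlapped the other group (-0.93 ± 0.13, limma adjusted p = 0.00666). The RPE call held in all 14 alternatives of the 6-library fit. The listed position of RPE overlaps that of KANSL1L on the opposite strand.

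The remaining pentose enzymes had intervals that include 0. TKT, transketolase, had 81.3, 97.2, 72.8 and 110 RPKM with DMOG and 111, 80.8, 104 and 99.5 RPKM with vehicle, a log2 fold change of 0.03 (95% interval -0.42 to 0.48), or -0.27 as deposited. TALDO1, transaldolase, had a log2 fold change of -0.17 (-0.58 to 0.24), PGLS, the lactonase, -0.11 (-0.41 to 0.19) and RPIA, the ribose isomerase, -0.11 (-0.51 to 0.28). ME1, malic enzyme, which also makes NADPH, was at 0.12 (-0.16 to 0.40), or -0.17 as deposited. PGLS was called lower with RPKM as deposited (adjusted p = 0.0326).

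Of 22 further genes of NADPH supply and pentose handling, 17 were tested, 3 were higher, 6 were lower (35.3%, against 16.1% of all genes) and 8 did not pass. Without factors the counts were 2 higher and 8 lower, against 6.13% and 34.5% of all genes. ALDH1L2 and MTHFD1L, mitochondrial folate enzymes, changed by -3.37 ± 0.24 (limma adjusted p = 0.00186) and -2.01 ± 0.10 (0.00091), and MTHFD2, of the same pathway, by -2.49 ± 0.52 (0.0156). In DMOG replicate 2, ALDH1L2 (25.6 RPKM), MTHFD1L (18.6 RPKM) and MTHFD2 (95.6 RPKM) lay within the range of the 4 vehicle libraries. Outside the naming rule, IDH2, the mitochondrial NADP isocitrate dehydrogenase, was higher by 1.3 ± 0.15 (0.00428), while its cytosolic counterpart IDH1 was lower by 0.69 (log2 fold change -0.69 ± 0.15, 0.016). DMOG replicate 2 again lay within the range of the 4 vehicle libraries for IDH2 (29.1 RPKM) and IDH1 (65.4 RPKM).

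Genes of cysteine supply and of glutathione breakdown were counted together as 1 list of 14. With DMOG in the 6 libraries, 10 of them were lower (71.4%, against 16.1% of all genes), 1 was higher and 3 did not pass. Their median log2 fold change was -1.18. Without factors 10 were lower and 0 higher, against 34.5% and 6.13% of all genes. CTH, which makes cysteine from cystathionine, averaged 2.81 ± 2.21 RPKM with DMOG and 28.9 ± 1.61 RPKM with vehicle (SD, n = 3 each). Its log2 fold change was -2.89 ± 0.37 (limma adjusted p = 0.00535). In DMOG replicate 2, CTH stood at 30.5 RPKM, above the 18.5 to 29.9 RPKM of the 4 vehicle libraries. CBS, the step before it, averaged 4.90 ± 1.24 RPKM with DMOG and 46.7 ± 6.18 RPKM with vehicle (-2.75 ± 0.16, 0.000932). In DMOG replicate 2, CBS stood at 45.8 RPKM, within the 25.4 to 50.4 RPKM of the 4 vehicle libraries. SLC7A11, the cystine importer, had 2.03, 19.4, 7.02 and 0.391 RPKM with DMOG and 19.1, 24.9, 18.9 and 24.6 RPKM with vehicle (-2.52 ± 0.57, 0.0192). Several genes of this list, SLC7A11 and CTH among them, are known targets of ATF4 as well, and the ATF4 target ASNS, asparagine synthetase, changed by -3.20 (0.00182). Of 6 ATF4 targets listed, 3 were lower (50%, against 16.1% of all genes). What part ATF4 has in these values was not tested.

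**Figure D4:**
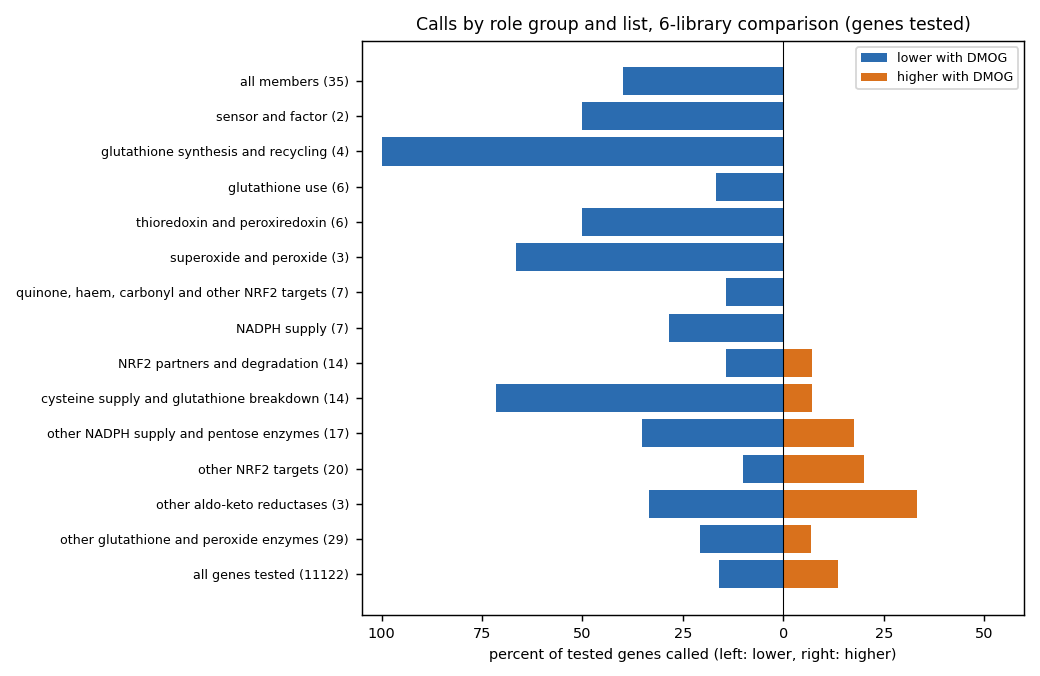
Percent of tested genes called lower (left, blue) and higher (right, orange) with DMOG in the 6-library comparison, for the members, their role groups, the other lists and all genes tested, with the number of genes tested in brackets. The bar of glutathione synthesis and recycling reaches 100% of 4 genes, and that of all genes 16.1% lower and 13.7% higher.

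Of 25 other genes listed here as NRF2 targets, 20 were tested and 14 did not pass (median log2 fold change 0.04). Of the 20, 4 were higher (20%, against 13.7% of all genes) and 2 were lower (10%, against 16.1%). The list does not separate genes that NRF2 raises from genes that it lowers. On RPKM as deposited 1 was higher and 4 were lower, against 6.13% and 34.5% of all genes. The median was then -0.25, against -0.26 for all genes. Lower were SLC7A11, which is on both lists, and EPHX1, an epoxide hydrolase (-0.81, limma adjusted p = 0.00864). Higher were BLVRB, a biliverdin reductase (0.79, 0.012), TXNIP, which binds and inhibits thioredoxin (0.84, 0.0158), and the ferritin chains FTL (0.54, 0.0488) and FTH1 (0.54, 0.0302). BLVRB was the one called higher as deposited. BLVRB, FTL and FTH1 are named after their values were seen. Of 34 other glutathione and peroxide enzymes, 29 were tested, 2 were higher and 6 were lower (20.7%, against 16.1% of all genes). Without factors 1 was higher and 13 were lower, against 34.5% of all genes lower. The largest changes were those of PRDX2, a cytosolic peroxiredoxin (0.94, 0.00848), GLRX5, a mitochondrial glutaredoxin (-0.87, 0.00535), and GLRX2, another (-0.80, 0.0105). Of 10 other aldo-keto reductases 3 were tested, of which AKR1B1, aldose reductase, was higher (0.40, 0.0331, and 0.11 as deposited) and AKR1A1, an aldehyde reductase, lower (-0.60, 0.0285). As deposited 0 of these 3 were higher and 1 was lower, against 6.13% and 34.5% of all genes. Over all 8 libraries 0 genes of any of these lists passed.

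Against 16.1% of all genes lower in the 6 libraries, the 7 members whose promoter windows hold the antioxidant response core included 3 of the 14 that were lower, GCLM, PGD and RPE. The other 4, GSTP1, ME1, TXNRD1 and GPX2, did not pass. Among the 22 members with a window that lacks it 7 were lower, and among the 6 with no window 4 were. A core outside these short windows would not be seen, so a window without it does not mean a gene without it.

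Because DMOG replicate 2 differs from its group, its place was recorded for each member. With RPKM as deposited it lay within the range of the 4 vehicle libraries in 29 of the 35 members and below that range in 6. Of the 14 members that were lower over the 6 libraries, it lay within the vehicle range in 10 and below it in 4. After scaling, those counts for the 14 were 7 and 7, and for the 35 they were 26 within, 8 below and 1 above. In each of the 10 as deposited, vehicle replicate 2, left out of the 6 libraries, was the lowest vehicle library. In all of the 10 but PRDX3, DMOG replicate 2 was below vehicle replicates 1, 3 and 4. The share of all genes within that range was not counted, so these counts describe the members only. CD68 was higher in the 6 libraries (0.79, limma adjusted p = 0.0388), as was COL1A1 (1.32, 0.00535). The 4 leukocyte markers summed to 60.9 to 94.0 RPKM with DMOG and 42.8 to 74.2 RPKM with vehicle, nearly all of it CD68, with CD3E at 0 in every DMOG library. The 5 fibroblast markers summed to 19.0 to 32.0 RPKM with DMOG and 8.71 to 14.1 RPKM with vehicle, nearly all of it COL1A1. Of the 8 keratinocyte markers KRT5, KRT14 and DSG3 were higher with factors and 0 were higher as deposited, where TP63 was lower (-0.57, limma adjusted p = 0.00845). The part of these markers in the members' values was not tested.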

How the data were processed

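The authors deposited RPKM values in a table named as raw counts, and scripts here used it for all 8 libraries. The submitters' processing notes name HTSeq 0.6.1, TopHat2 2.0.13, Picard 1.129, FastQC 0.11.5, SAMtools 1.3.1, bcl2fastq and Bowtie2 2.2.3.0 without role or order, and both hg19 and hg38. The table's positions are hg19. RPKM times length gave whole reads (100% of values above 0 within 0.01 reads). Groups come from the treatment label and replicate numbers from the titles. Nothing in the labels states separate cultures, so p-values describe the spread between these libraries, which may be technical.

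The authors also deposited a table of group means on a normalized signal scale, a ratio (fold change), its log2 value, a p-value and an adjusted p per gene. Its means were recovered from reads of replicates 1, 3 and 4 only, which also gave the direction of its fold.

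The fit was limma-trend (limma 3.58.1, R 4.3.3, robust) on log2(RPKM / median-ratio factor + 1), two-sided, Benjamini-Hochberg over 11122 genes with 1 RPKM or more in at least 4 of 8 libraries. Factors were 0.852 to 0.934 for DMOG and 1.07 to 1.14 for vehicle in the 6 libraries. A check of pairing correlated the deviations of same-numbered libraries from their group means: 0.47, 0.40 and 0.34 for replicates 1, 3 and 4 in the 6 libraries, so numbers were taken to pair them, and 0.07, -0.02, 0.53 and 0.24 for replicates 1 to 4 in all 8, where they were not. Fits were also run on simulated libraries with known changes, none of which was made to differ from its group as DMOG replicate 2 does. Every member is named. Other genes are the up to 3 called ones with the largest change in each list, except where stated or where they check the treatment or cell type. Members, lists and the choice of the 6 libraries were made with earlier results of these data known. Alternatives were RPKM as deposited, pseudocounts 0.1 and 0.5, other filters, limma-voom, a replicate block and leaving out each library.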

Additional observations from a re-analysis of the deposited data

Results flagged for a closer look

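A library was taken to stand apart where its gap to the nearest other library of its group exceeded Dixon's 95% critical value as a share of the group's range, in 70 groups of 4 RPKM values (35 members in each of 2 treatments). Chance gives about 1 in 20, and 6 values met the rule. GPX1 stood at 171 RPKM in DMOG replicate 2, against 104 to 109 RPKM in the other DMOG libraries. Its vehicle replicate 2 stood at 158 RPKM, against 215 to 224 RPKM in the other vehicle libraries. GCLC stood at 9.93 RPKM in vehicle replicate 2, against 12.7 to 13.1 RPKM. GPX3 stood at 97.9 RPKM in vehicle replicate 3, against 117 to 121 RPKM, and OSGIN1 at 5.72 RPKM in the same library, against 3.53 to 3.70 RPKM. AKR1C2 stood at 7.82 RPKM in vehicle replicate 4, against 3.72 to 4.01 RPKM.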

How the results depend on the processing

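Over the 6 libraries, 6 members (GSS, GCLC, GSR, GPX1, NQO1 and RPE) were lower in all 14 alternatives. None of these alternatives holds DMOG replicate 2. The count of members called was 8 with no filter, against 14, and 6 to 14 when single libraries were left out. Genes called over the table then numbered 918 to 4751, against 3318. The replicate block gave 17 members (2 higher, 15 lower) and 2181 genes higher and 2337 lower, and beyond GPX3, HMOX1 and AKR1C3 it changed no other member's call. Over 8 libraries, 0 genes were called in the alternatives that kept all 8, the block among them. Leaving out single libraries gave 0 to 3694 genes and 0 to 14 members, above 0 only without DMOG replicate 2. Among the 8, deviations of same-numbered libraries correlated at 0.53 and 0.24 for replicates 3 and 4, but at 0.07 and -0.02 for replicates 1 and 2. The members' log2 fold changes changed sign with RPKM as deposited for KEAP1 (-0.22), GPX2 (-0.083), GPX4 (-0.27), TKT (-0.27) and ME1 (-0.17) in the 6 libraries, and for KEAP1 (-0.14), GPX4 (-0.13), MGST1 (-0.18), TKT (-0.14) and ME1 (-0.12) in the 8. In the first case the median gene itself moved to -0.26. MGST1 reached 0.0082 with vehicle replicate 2 added. When single libraries of the 6 were left out, the sign changed for MGST1 (-0.14 to 0.011), PGLS (-0.18 to 0.0013), GPX4 (-0.057 to 0.096), TXNRD1 (-0.43 to 0.15), TKT (-0.18 to 0.18), RPIA (-0.24 to 0.064), PRDX5 (-0.12 to 0.049) and OSGIN1 (-0.31 to 0.00077). Of the 8 it changed for PRDX5 (-0.14 to 0.040), PGLS (-0.070 to 0.089), MGST1 (-0.051 to 0.080), TXNRD1 (-0.27 to 0.14), TKT (-0.067 to 0.17), RPIA (-0.15 to 0.054), GPX4 (-0.034 to 0.17), TALDO1 (-0.18 to 0.023) and AKR1C1 (-0.33 to 0.017). None of these genes was called in the 6- or 8-library fit with factors, and the cause of the changes was not tested. Depth was low for AKR1B10 (39 to 177 reads per library), GCLM (91 to 349), GPX2 (98 to 247), AKR1C3 (106 to 438) and RPIA (137 to 328).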
